A study of Mus musculus with 6 samples.

Results

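The genes described here encode the collagen chains and a set of stromal matrix proteins: decorin (Dcn), lumican (Lum), biglycan (Bgn), matrix Gla protein (Mgp), Sparc, fibronectin (Fn1), periostin (Postn), the cross-linking enzyme Loxl1, and the surface proteins Thy1, Pdgfra and Pdgfrb. They were chosen by name: a collagen symbol, Col with its number and then the letter a, or 1 of the listed symbols, on a probe set with exactly 1 platform symbol. Where a gene had several probe sets, the one with the highest mean over the 6 arrays stood for it. This gave 53 of the 18820 tested genes, 42 collagen chains and 11 others. Read as a single digit after Col, the rule would give 34. Fbn1 was on the list of names but was not analysed here, and neither were 2 collagen genes whose probe sets carried a second symbol, Col7a1 and Col9a3.

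RNA came from bone marrow-derived macrophages of male mice aged 12 to 16 weeks and was hybridised to Affymetrix arrays, 1 array per sample. The samples were GPS2KO (3 arrays), labelled as a macrophage knockout of Gps2, a subunit of nuclear corepressor complexes, and wild type (WT, 3 arrays). Both groups were cultured for 7 days in DMEM with serum and 30% medium conditioned by L929 cells, a mouse fibroblast line that secretes macrophage growth factor, and neither was stimulated. The labels name no Cre driver, deleted exons or strain. They also do not say whether the arrays of a group came from different mice, and the p-values then speak of array-to-array spread alone, part of which may be technical. Gps2 itself had a log2 intensity of 10.29, 10.16 and 10.19 on the GPS2KO arrays, against 10.94, 10.93 and 11.00 on the WT arrays, a fall of 0.75 (SE 0.0472, limma adjusted p = 0.000256). Values are log2 intensities, where a difference of 1 is a 2-fold change in signal. Each difference is GPS2KO minus WT with limma's standard error (SE), and a gene rose or fell only where its p, adjusted over all tested genes by Benjamini-Hochberg, was under 0.05.

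Collagens are secreted proteins of 3 chains wound into a helix rich in glycine and proline. Fibrillar types bear the load in tissue, network types build basement membranes, and other types link fibrils to cells. Fibroblasts and other mesenchymal cells are their main source, and small leucine-rich proteoglycans such as decorin, lumican and biglycan bind the fibrils. Macrophages take up and degrade collagen, and also secrete matrix proteins such as fibronectin.

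In GPS2KO cultures 10 of the 53 genes fell, 1 rose and 42 did not pass. Those that fell were Col1a1, Col6a1, Col6a2, Col8a1, Col8a2, Col14a1, Col18a1, Mgp, Thy1 and Pdgfrb, and the gene that rose was Dcn. The changes were small: the 10 falls lay between 1.14-fold (Col8a2) and 1.26-fold (Mgp). Among all tested genes 3.83% fell and 2.9% rose, against 18.9% and 1.89% of these 53. Above the limit for dim signal, 5.49 on the log2 scale and the 40th percentile of mean signal, 8 of 40 of these genes fell (20%), against 6.06% of all tested genes there. The mean was lower in GPS2KO for 43 of the 53, against 53.6% of all tested genes. The median difference was -0.09 over the 53 and -0.01 over all tested genes. All 3 GPS2KO arrays lay below all 3 WT arrays for 23 of the 53, against 15.2% of all tested genes, and above them for 2, Dcn and Col24a1, against 11.9%. Without any 1 array, 5 or 6 of the 53 fell, against 2.23% to 2.67% of all tested genes, and the 1 rise was lost in 4 of these 6 repeats.

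Of the tested genes 545 rose and 720 fell (43.1% of calls were rises), and 460 rose and 1061 fell (30.2%) after each array was centred on its median. The 8 macrophage markers averaged 12.06 to 12.08 on the GPS2KO arrays, against 11.98 to 12.01 on the WT arrays, and 0 of them lay under the dim limit. Among markers of other blood cells, 4 of 5 neutrophil, 5 of 6 dendritic cell and 5 of 5 lymphocyte genes lay under that limit. Signals under it may be mostly background, which compresses differences.

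**Figure D1:**
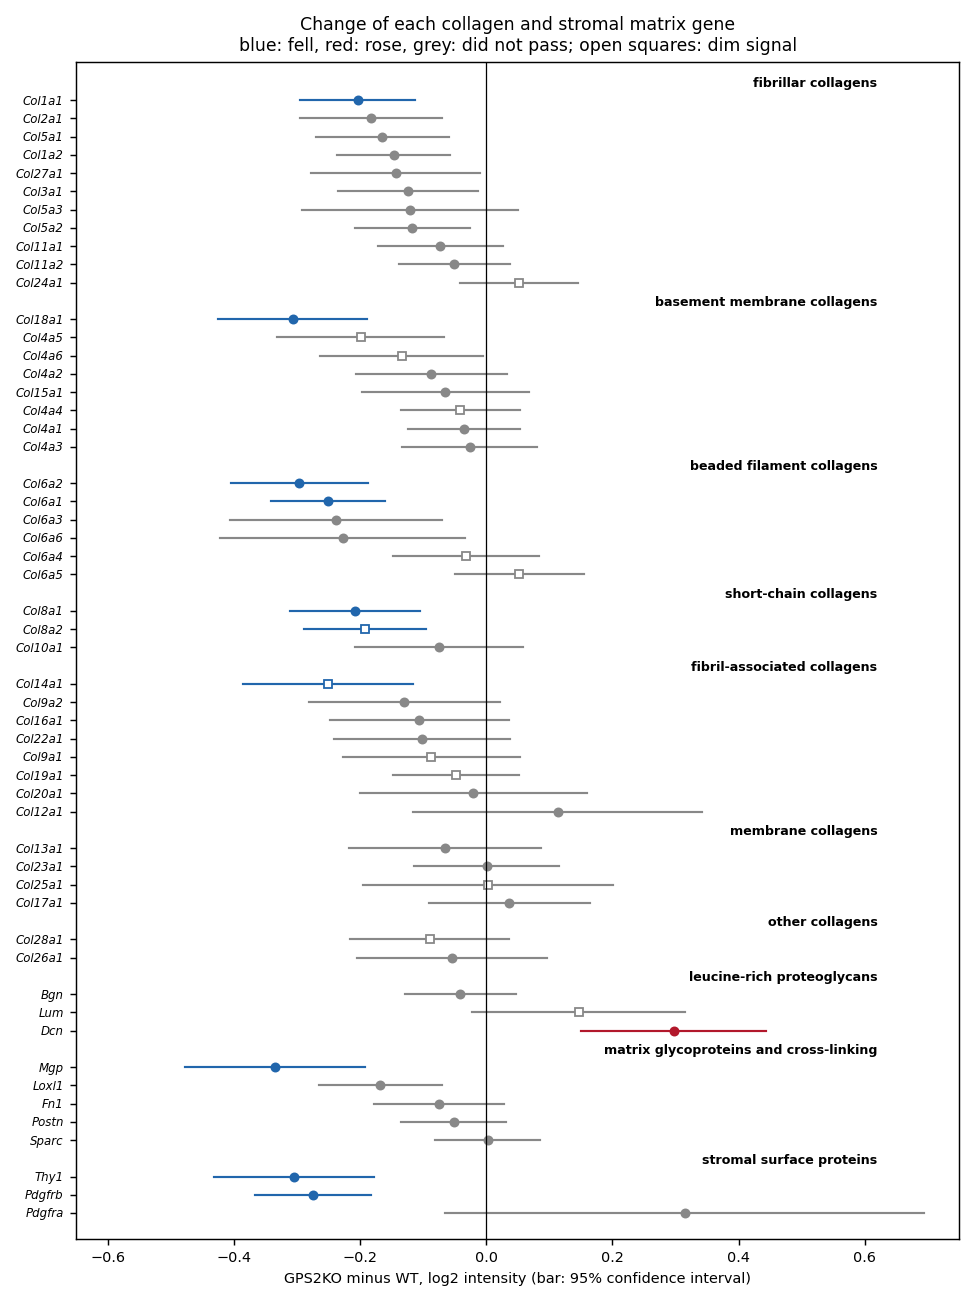
Change of each of the 53 genes, GPS2KO minus WT in log2 intensity, by class of protein, with the 95% confidence interval as a bar. The 10 genes that fell are blue, Dcn is red, and the genes that did not pass are grey, with most points left of 0.

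Some stromal genes gave bright signals in these macrophage cultures. Of the 53 genes, 40 lay above the dim limit and 13 below it. The limit is a percentile, and by that definition 11292 of the 18820 tested genes lay above it. Some of the 40 were close to the limit of 5.49, such as Col17a1 (mean 5.52), Col4a3 (5.54) and Col13a1 (5.56). A place above the limit therefore does not by itself make a gene bright. The 6 with the highest mean signal were Bgn, Sparc, Fn1, Postn, Col1a1 and Col1a2. Bright signal here means signal over background, since probes for different genes bind with different strength. Bulk RNA cannot tell fewer cells of a type from less RNA per cell, which holds for every difference given here.

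Bgn, a proteoglycan that binds collagen fibrils, had 12.87, 12.91 and 12.89 on the GPS2KO arrays, against 12.95, 12.95 and 12.89 on the WT arrays. WT replicate 3 lay among the GPS2KO values, and the difference was -0.04 (95% confidence interval -0.13 to 0.05, adjusted p = 0.602). Sparc, a collagen-binding glycoprotein, had 12.84, 12.81 and 12.83 on the GPS2KO arrays, against 12.82, 12.83 and 12.82 on the WT arrays, a difference of 0.00 (interval -0.08 to 0.08). Fn1, the fibronectin gene, had 12.73, 12.84 and 12.79 on the GPS2KO arrays, against 12.88, 12.89 and 12.82 on the WT arrays. The difference of -0.07 had an interval of -0.18 to 0.03, and the groups overlapped through GPS2KO replicate 2. Postn, which assists collagen assembly, had 12.17, 12.19 and 12.20 on the GPS2KO arrays, against 12.25, 12.24 and 12.22 on the WT arrays, with no overlap and a difference of -0.05 (interval -0.14 to 0.03). The intervals of these 4 genes together spanned -0.18 to 0.08, and 0 of the 4 passed.

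Of the 11 fibrillar chains 1 fell, the alpha 1 chain of type I collagen, the main collagen of bone, skin and tendon. Col1a1 had 11.77, 11.77 and 11.76 on the GPS2KO arrays, against 11.92, 11.99 and 12.00 on the WT arrays. The means were 11.77 ± 0.0013 in GPS2KO and 11.97 ± 0.045 in WT (SD, n = 3 each), and the groups lay apart. Col1a1 fell 1.15-fold (difference -0.20, SE 0.0393, limma adjusted p = 0.0225). That call ended without any 1 array other than WT replicate 1, at adjusted p up to 0.0796. Col1a2, the partner chain of the same helix, had 11.50, 11.51 and 11.50 on the GPS2KO arrays, against 11.61, 11.64 and 11.69 on the WT arrays. These groups lay apart too, but the difference of -0.15 did not pass (SE 0.0384, adjusted p = 0.0671). It did pass when arrays were centred on their medians (limma adjusted p = 0.0369) and when limma modelled the variance as a trend with signal (0.00246). It passed too when dim genes were dropped (0.0246). In these fits 5.64%, 6.63% and 10.2% of all tested genes fell, in that order, against 3.83% without these steps. Col1a2 did not pass after quantile normalization (0.0677), with replicate number as a block (0.137) or when any 1 array was left out.

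The other 9 fibrillar chains did not pass. Differences of -0.18 for Col2a1 (the cartilage collagen), -0.17 for Col5a1, -0.12 for Col3a1, -0.12 for Col5a2 and -0.14 for Col27a1 came with groups that lay apart. The limma adjusted p-values of these 5 ran from 0.0689 to 0.211, and Col2a1 and Col5a1 passed after median centring and without dim genes. Neither passed after quantile normalization (0.0802 for Col2a1 and 0.0776 for Col5a1) or with a variance trend (0.0683 and 0.0557). A second probe set of Col5a1 differed by -0.13 with overlapping groups (adjusted p = 0.371 over all probe sets with 1 symbol). Type III and type V chains form mixed fibrils with type I collagen. Col11a1 and Col5a3 overlapped between groups, while Col11a2 lay slightly lower in GPS2KO (-0.05) and Col24a1, a dim gene, slightly higher (0.05). Of the 11 fibrillar chains, 10 had lower means in GPS2KO, against 53.6% of all tested genes, with a median difference of -0.12.

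**Figure D2:**
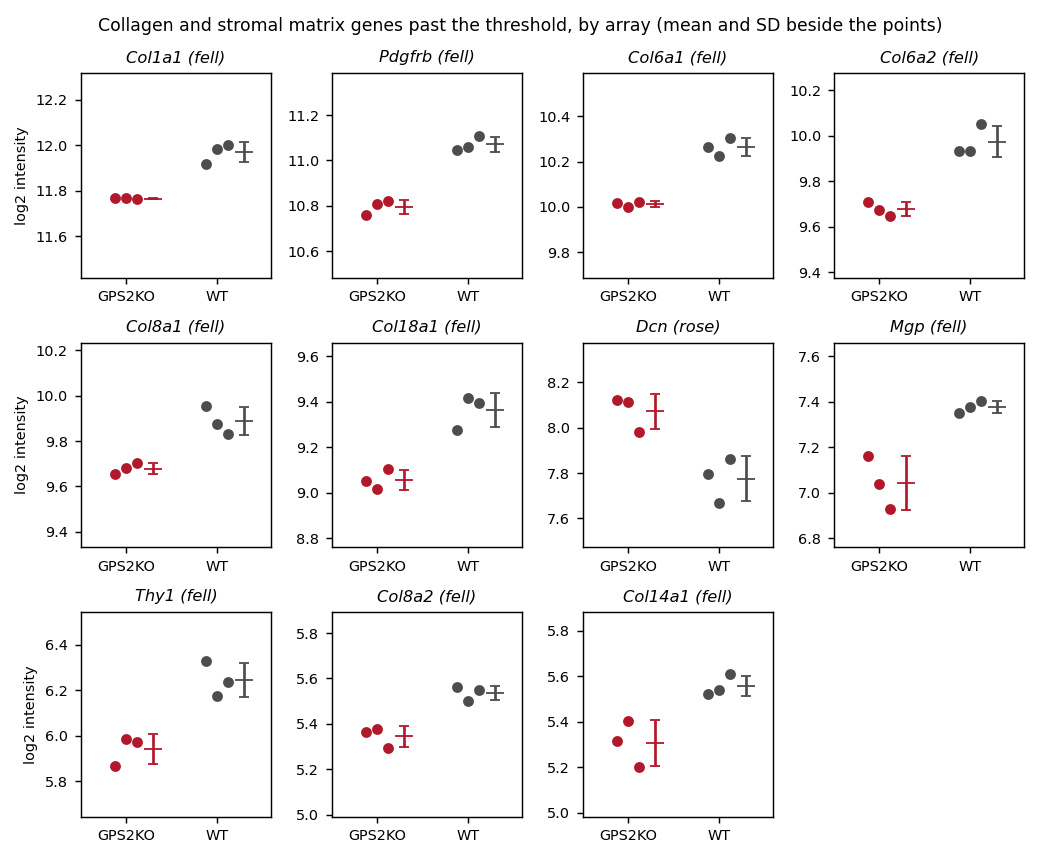
Log2 intensity of the 11 genes past the threshold on each array, GPS2KO left and WT right, with the mean and SD beside the points; each panel spans 0.9 log2 units. GPS2KO lies below WT without overlap in every panel except Dcn, where it lies above.

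Type VI collagen forms beaded filaments around cells from alpha 1, alpha 2 and 1 of several longer chains. Col6a1 had 10.02, 10.00 and 10.02 on the GPS2KO arrays, against 10.27, 10.22 and 10.30 on the WT arrays. Its means were 10.01 ± 0.011 and 10.26 ± 0.04 in GPS2KO and WT (SD, n = 3 each), a fall of 1.19-fold (difference -0.25, SE 0.0387, limma adjusted p = 0.00897). Col6a2 had 9.71, 9.67 and 9.65 on the GPS2KO arrays, against 9.93, 9.93 and 10.05 on the WT arrays. It fell 1.23-fold (difference -0.30, SE 0.0466, adjusted p = 0.00988). Both groups lay apart for both genes, and both calls held without any 1 of the 6 arrays.

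Col6a3, the longest chain, had 8.86, 9.13 and 8.91 on the GPS2KO arrays, against 9.16, 9.20 and 9.25 on the WT arrays. GPS2KO replicate 2 lay close to the WT arrays and widened the spread, and the difference of -0.24 did not pass (SE 0.0722, adjusted p = 0.104). Without that array the difference was -0.32 and passed (adjusted p = 0.0202), and with a variance trend the adjusted p was 0.0252. It did not pass after quantile normalization (0.108), after median centring (0.0669) or without dim genes (0.058). Nor did it pass with replicate number as a block or without any other single array. The later-found chains Col6a4, Col6a5 and Col6a6 did not pass, with differences of -0.03, 0.05 and -0.23, and the first 2 were dim. A second probe set of Col6a6 differed by -0.03 and one of Col6a5 by -0.03, each with overlapping groups, so the 2 probe sets of Col6a5 differed in sign.

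Col18a1 encodes a basement membrane collagen whose end fragment is endostatin. Its log2 intensity was 9.05, 9.02 and 9.10 on the GPS2KO arrays, against 9.28, 9.42 and 9.40 on the WT arrays. All GPS2KO values were lower, a fall of 1.24-fold (difference -0.31, SE 0.0506, limma adjusted p = 0.0117). Without GPS2KO replicate 2 the adjusted p was 0.0512. The type IV chains, which form the basement membrane network itself, did not pass: Col4a1 differed by -0.03 (interval -0.12 to 0.05) and Col4a2 by -0.09 (interval -0.21 to 0.03). Col4a5 and Col4a6 had lower values on all GPS2KO arrays (-0.20 and -0.13, adjusted p = 0.087 and 0.223) but were dim, as was Col4a4. All 8 basement membrane chains had lower means in GPS2KO, against 53.6% of all tested genes, with a median difference of -0.08. The groups overlapped for Col4a1, Col4a2, Col4a3, Col4a4 and Col15a1.

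Col6a2, Col6a1 and Col18a1 are neighbours on chromosome 10, a feature that the choice of genes did not use and that was looked at after the values were seen. In the order of tested genes, Pcbp3 and Slc19a1 lie between Col6a1 and Col18a1. Pcbp3 differed by -0.11 (adjusted p = 0.301) and Slc19a1, a folate transporter, by -0.04 (adjusted p = 0.572), and neither passed. Of the 4 tested genes on the Col6a2 side and the 4 on the Col18a1 side, 0 passed. Their differences ran from -0.19 for Ftcd to 0.19 for Lss, a sterol synthesis enzyme.

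**Figure D3:**
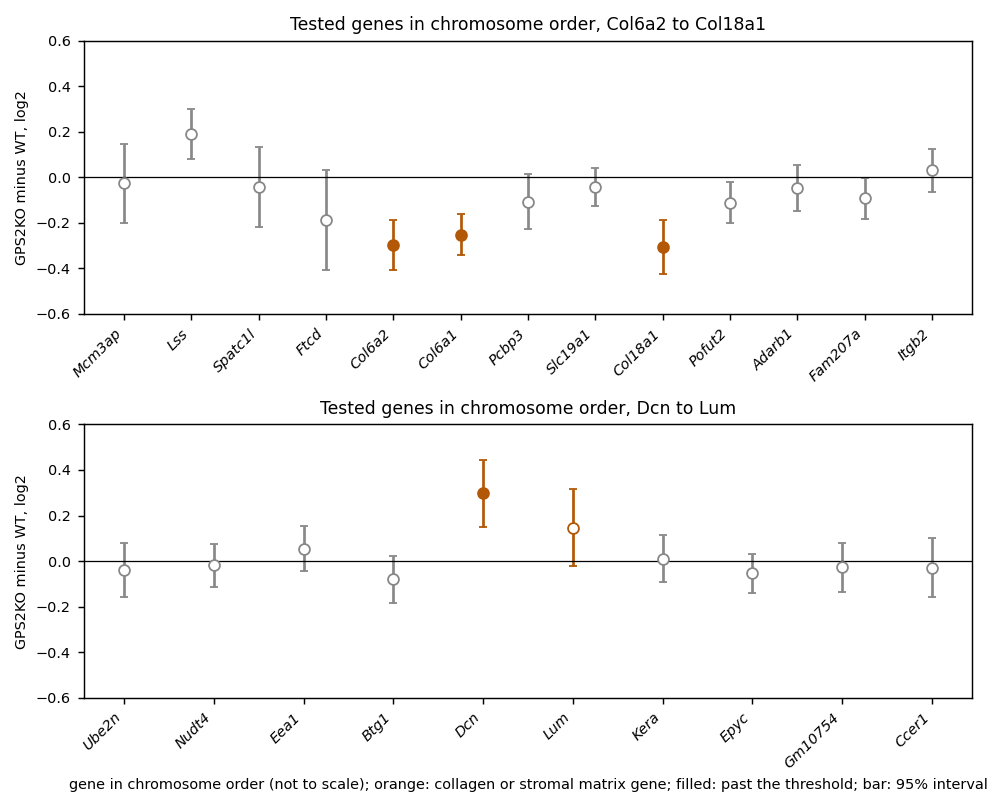
Difference GPS2KO minus WT in log2 intensity, with 95% confidence intervals, for tested genes in chromosome order around Col6a2 to Col18a1 (top) and Dcn to Lum (bottom). Filled points passed: the 3 collagens in the upper panel and Dcn in the lower one, with 0 of the other genes shown.

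The promoters of 5 collagen genes that fell are printed, the 3 chromosome 10 neighbours among them. They are the 5 of the 10 fallen genes with a window in the table used, which did not cover Col1a1 or Col14a1. That table, made from RefSeq in build GRCm38.p6, held promoter windows for 38 of the 53 genes, each of 300 bases, from 250 before to 50 after a transcript start. Where it held 2 windows (Col6a2 and Col18a1) the one farthest upstream was taken. Capitals mark matches on either strand to TATAAA (known as the TATA box), to CCAAT (known as the CCAAT box), to GGGCGG (the core bound by Sp1-type factors) or to TGANTCA (the core bound by AP-1). Neighbouring or overlapping matches run together. The windows are chr10:76623581-76623880 (minus strand), chr10:76725995-76726294 (minus), chr10:77166481-77166780 (minus), chr16:57754688-57754987 (minus) and chr4:126286544-126286843 (plus), all printed 5′ to 3′ along the gene.
Col6a2: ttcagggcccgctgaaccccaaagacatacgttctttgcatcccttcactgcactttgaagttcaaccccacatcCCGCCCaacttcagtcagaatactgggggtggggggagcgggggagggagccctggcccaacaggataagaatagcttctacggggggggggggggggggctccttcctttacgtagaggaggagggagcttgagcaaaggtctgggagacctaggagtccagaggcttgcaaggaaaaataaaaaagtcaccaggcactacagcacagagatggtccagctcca
Col6a1: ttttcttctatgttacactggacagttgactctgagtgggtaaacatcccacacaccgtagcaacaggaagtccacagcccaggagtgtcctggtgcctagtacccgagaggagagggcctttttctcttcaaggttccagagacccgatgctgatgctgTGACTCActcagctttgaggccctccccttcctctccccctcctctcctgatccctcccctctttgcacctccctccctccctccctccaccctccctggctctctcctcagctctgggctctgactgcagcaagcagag
Col18a1: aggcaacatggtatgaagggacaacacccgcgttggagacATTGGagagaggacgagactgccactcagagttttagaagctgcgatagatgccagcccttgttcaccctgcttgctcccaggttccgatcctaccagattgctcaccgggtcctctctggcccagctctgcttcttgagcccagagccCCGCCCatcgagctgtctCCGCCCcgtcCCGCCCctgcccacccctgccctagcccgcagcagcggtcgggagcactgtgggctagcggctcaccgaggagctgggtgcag
Col8a1: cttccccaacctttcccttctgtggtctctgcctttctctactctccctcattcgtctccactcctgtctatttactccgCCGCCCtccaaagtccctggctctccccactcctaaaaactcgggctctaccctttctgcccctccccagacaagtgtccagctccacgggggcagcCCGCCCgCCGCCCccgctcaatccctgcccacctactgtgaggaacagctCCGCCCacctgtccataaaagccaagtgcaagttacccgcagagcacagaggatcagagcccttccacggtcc
Col8a2: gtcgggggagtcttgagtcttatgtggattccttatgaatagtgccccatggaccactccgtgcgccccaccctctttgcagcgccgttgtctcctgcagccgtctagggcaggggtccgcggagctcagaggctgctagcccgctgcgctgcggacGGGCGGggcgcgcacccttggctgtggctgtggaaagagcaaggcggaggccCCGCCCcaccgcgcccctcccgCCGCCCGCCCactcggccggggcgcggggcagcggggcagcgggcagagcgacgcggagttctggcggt

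GGGCGG was found in 4 of these 5 windows, once in Col6a2, 3 times in Col18a1 and 4 times each in Col8a1 and Col8a2. It was found in 22 of the 38 windows of the whole set and in 35.7% of all 32851 listed windows of this length. TGANTCA was found once, in Col6a1, and in 7.81% of all windows. CCAAT was found in Col18a1 alone, against 37.4% of all windows, and TATAAA in 0 of the 5, against 13.6%. The median GC content was 60.3% in these 5 windows, 59.5% in the 38 and 52.7% in all windows. A match describes letters and not binding.

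Type VIII collagen is a short-chain collagen made from alpha 1 and alpha 2 chains and is known from vessel walls and the cornea. Col8a1 had 9.65, 9.68 and 9.70 on the GPS2KO arrays, against 9.95, 9.88 and 9.83 on the WT arrays, and fell 1.16-fold (difference -0.21, SE 0.0441, limma adjusted p = 0.0326). Col8a2 had 5.36, 5.38 and 5.29 on the GPS2KO arrays, against 5.56, 5.50 and 5.55 on the WT arrays, and fell 1.14-fold (difference -0.19, SE 0.0418, adjusted p = 0.0358). Both chains lay apart between groups, and Col8a2 was dim. The Col8a1 call ended without any 1 array other than WT replicate 3 (adjusted p up to 0.103), and that of Col8a2 without any 1 array (0.0638 to 0.119) and with a variance trend (0.103). Col10a1, the short-chain collagen of growth cartilage, did not pass (-0.08, adjusted p = 0.522).

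Of the 8 fibril-associated collagens, which decorate fibrils without forming them, Col14a1 fell. Its log2 intensity was 5.31, 5.40 and 5.20 on the GPS2KO arrays, against 5.52, 5.54 and 5.61 on the WT arrays. The groups lay apart, with a fall of 1.19-fold (difference -0.25, SE 0.0579, limma adjusted p = 0.0453). The gene was dim, and its call ended with a variance trend (adjusted p = 0.0510) and without any 1 array other than GPS2KO replicate 2 (up to 0.132). Col12a1, its relative, had 10.31, 10.72 and 10.56 on the GPS2KO arrays, against 10.35, 10.50 and 10.40 on the WT arrays. The GPS2KO arrays spanned the WT values, with replicate 1 below and replicates 2 and 3 above all of them, and the difference of 0.11 had an interval of -0.12 to 0.34. The other 6, Col9a1, Col9a2, Col16a1, Col19a1, Col20a1 and Col22a1, differed by -0.13 to -0.02 and did not pass. A dimmer second probe set of Col20a1 lay lower on all GPS2KO arrays (-0.16, adjusted p = 0.0751 over all probe sets with 1 symbol).

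The 4 membrane collagens, which span the cell membrane, stayed within -0.07 (Col13a1) and 0.04 (Col17a1), with overlapping groups. Intervals were -0.12 to 0.12 for Col23a1 and -0.19 to 0.20 for Col25a1. Col26a1 and Col28a1 differed by -0.05 and -0.09 and did not pass.

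Dcn was the 1 gene of the set that rose. Decorin is a small proteoglycan that coats collagen fibrils and binds transforming growth factor beta (TGF-beta). Its log2 intensity was 8.12, 8.11 and 7.98 on the GPS2KO arrays, against 7.80, 7.67 and 7.86 on the WT arrays. All GPS2KO values were higher, with means of 8.07 ± 0.077 in GPS2KO and 7.78 ± 0.10 in WT (SD, n = 3 each) and a rise of 1.23-fold (difference 0.30, SE 0.0632, limma adjusted p = 0.0334). The call held without GPS2KO replicate 3 or WT replicate 3 and ended without any 1 of the other 4 arrays, at adjusted p up to 0.115. Lum, the proteoglycan gene next to it on chromosome 10, had 4.05, 4.19 and 4.25 on the GPS2KO arrays, against 4.13, 3.90 and 4.02 on the WT arrays. It was the dimmest of the 53, the groups overlapped, and the difference was 0.15 (interval -0.02 to 0.32). Kera, the following gene and another proteoglycan of this family, was dim as well and differed by 0.01.

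Mgp encodes an inhibitor of calcification in matrix. Its log2 intensity was 7.16, 7.04 and 6.93 on the GPS2KO arrays, against 7.35, 7.38 and 7.40 on the WT arrays. The groups lay apart, and Mgp fell 1.26-fold (difference -0.34, SE 0.0613, limma adjusted p = 0.0178). Its call ended without GPS2KO replicate 2 or any 1 WT array, at adjusted p up to 0.0684. Loxl1, which cross-links elastin and collagen, had 10.06, 10.05 and 10.05 on the GPS2KO arrays, against 10.23, 10.27 and 10.16 on the WT arrays. The groups did not overlap, but the difference of -0.17 did not pass (SE 0.0419, adjusted p = 0.0577). It did pass with arrays centred on their medians (0.0387), with the variance modelled as a trend (0.00741) and with dim genes dropped (0.0227). In these fits 5.64%, 6.63% and 10.2% of all tested genes fell, in that order, against 3.83% without these steps. Loxl1 did not pass after quantile normalization (0.0631), with replicate number as a block or when any 1 array was left out.

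Of the 3 surface proteins of stromal cells, Pdgfrb and Thy1 fell and Pdgfra did not pass. Pdgfrb, a receptor for platelet-derived growth factor on pericytes and fibroblasts, had 10.76, 10.81 and 10.82 on the GPS2KO arrays, against 11.05, 11.06 and 11.11 on the WT arrays. The means were 10.80 ± 0.032 in GPS2KO and 11.07 ± 0.033 in WT (SD, n = 3 each), a fall of 1.21-fold (difference -0.28, SE 0.0395, limma adjusted p = 0.00675). Its adjusted p was the smallest of the 53, and the call held without any 1 array. Thy1, a glycoprotein of fibroblasts and T cells, had 5.87, 5.98 and 5.97 on the GPS2KO arrays, against 6.33, 6.17 and 6.23 on the WT arrays, a fall of 1.23-fold (difference -0.30, SE 0.0545, adjusted p = 0.0165). The groups lay apart, and the call ended without GPS2KO replicate 1, WT replicate 1 or WT replicate 3 (up to 0.0562). Pdgfra, the alpha receptor, had 6.94, 7.44 and 7.01 on the GPS2KO arrays, against 6.51, 6.94 and 7.00 on the WT arrays. Both groups held a value far from the others, GPS2KO replicate 2 and WT replicate 1, and the difference of 0.31 had an interval of -0.07 to 0.69.

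**Figure D4:**
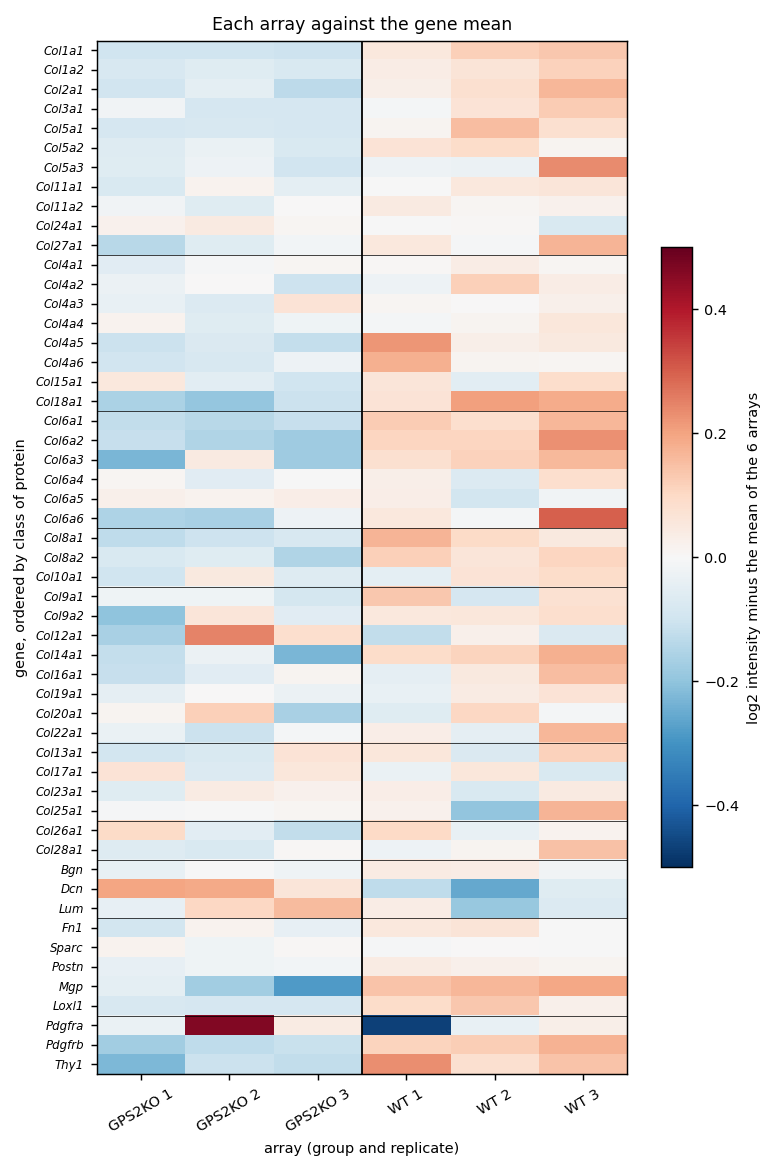
Log2 intensity of the 53 genes on each array, as the difference from the gene's mean over the 6 arrays, GPS2KO left and WT right; rows are ordered by class of protein. The collagen rows are mostly blue in GPS2KO and red in WT, while Dcn runs the other way and Pdgfra varies within both groups.

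Within groups the arrays did not rank alike. GPS2KO replicate 2 was the highest of its group for 24 of the 53 genes and WT replicate 3 for 29. The median SD was 0.044 in GPS2KO and 0.068 in WT over the 53 genes, and 0.056 and 0.061 over all tested genes. The mean over the 42 collagen chains was 6.89, 6.92 and 6.91 on the GPS2KO arrays, against 7.00, 6.99 and 7.05 on the WT arrays.

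Genes of the same biology were taken from lists that share no member with the 53. Beside their shares stand 3.83% falls and 2.9% rises among all tested genes, and 6.06% and 4.54% among those above the dim limit. Of 34 other matrix proteins, 6 fell (17.6%), 1 rose (2.94%) and 27 did not pass, with a median of -0.07. Aspn, a proteoglycan related to decorin, averaged 6.59 ± 0.11 in GPS2KO and 7.24 ± 0.11 in WT (SD, n = 3 each; adjusted p = 0.00255), a fall of 1.56-fold. Fbln5, which organises elastic fibres, fell 1.36-fold (adjusted p = 0.00449), and Nid1, which joins laminin to type IV collagen, 1.21-fold (adjusted p = 0.0117). Mfap5, Fbln2 and Ogn fell too, by 0.36, 0.19 and 0.27, and the laminin chain Lama4 rose by 0.29. These last 4 calls were less firm. When 1 array was left out, Lama4 passed only without GPS2KO replicate 3, Ogn only without WT replicate 3, Mfap5 only without WT replicate 1 or 2, and Fbln2 in no case (adjusted p up to 0.124 for Ogn). Thbs1, Thbs2 and Tnc, the brightest of the list, differed by -0.05 to 0.00 and did not pass.

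Of 27 genes of collagen synthesis and modification, 2 fell and 25 did not pass, with a median of -0.05. These falls made up 7.41%, near the 6.06% of all tested genes above the dim limit, and 2 of the 27 were dim. Adamts14, which trims the ends of procollagen, fell 1.31-fold (adjusted p = 0.0141). P3h3, of the prolyl 3-hydroxylase family, fell 1.18-fold (adjusted p = 0.0179), a call kept without GPS2KO replicate 1 alone (up to 0.075). The bright genes P4hb, Plod1 and Lox, which hydroxylate or cross-link collagen, differed by -0.02, -0.09 and -0.01 and did not pass. Of 24 matrix receptors, 5 fell (20.8%) and 19 did not pass, with a median of -0.14. Cd47, a receptor of thrombospondin, fell by 0.30 (adjusted p = 0.00589). The integrin subunits Itgav, Itgb8 and Itga1 and the syndecan Sdc4 fell by 0.17, 0.44, 0.20 and 0.18. The calls of Itgav, Sdc4 and Itga1 ended without any 1 array, and that of Itgb8 without any 1 except WT replicate 2 or 3, at adjusted p up to 0.143 for Itga1. Itgb5 and Itga5, bright integrin subunits, differed by -0.15 and -0.15 and did not pass.

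Genes of collagen breakdown and uptake moved both ways. Of 14, 5 rose (35.7%), 3 fell (21.4%) and 6 did not pass, with a median of 0.09. The collagenases Mmp8 and Mmp13 averaged 9.31 ± 0.049 and 9.57 ± 0.10 in GPS2KO, against 8.43 ± 0.11 and 8.79 ± 0.24 in WT (SD, n = 3 each), rises of 1.84-fold for Mmp8 (limma adjusted p = 0.000323) and 1.72-fold for Mmp13 (0.00714). The lysosomal proteases Ctsk and Ctsl, which cleave collagen, rose by 0.47 (adjusted p = 0.00107) and by 0.29 (0.0114). The macrophage mannose receptor Mrc1, which takes up collagen, rose by 0.49 (adjusted p = 0.00121). Mmp2 and the membrane-bound Mmp14, metalloproteinases that fibroblasts also make, fell by 0.25 (adjusted p = 0.00687) and by 0.30 (0.0107). Mrc2, the collagen uptake receptor of fibroblasts, fell by 0.27 (adjusted p = 0.00861). These 8 calls held without any 1 array. The bright inhibitors Timp3 and Timp2 differed by 0.01 and 0.05 and did not pass.

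Of 18 genes of the TGF-beta pathway, which drives collagen transcription in fibroblasts, 5 fell (27.8%) and 13 did not pass, with a median of -0.06. The ligands Tgfb3 and Tgfb2 fell by 0.30 and 0.28 (adjusted p = 0.0038 and 0.0113), and the signal carrier Smad3 by 0.32 (adjusted p = 0.00678). The receptor Tgfbr1 and the latency protein Ltbp3 fell by 0.20 and 0.26. The Tgfbr1 call ended without any 1 array and that of Ltbp3 without any except GPS2KO replicate 1 (adjusted p up to 0.104). Tgfb1, a bright ligand gene, and Tgfbi and Ccn2, bright genes that the pathway induces in fibroblasts, differed by -0.06, -0.12 and -0.05 and did not pass.

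Other markers of fibroblasts and mesenchymal cells, 28 tested, split: 4 fell (14.3%), 3 rose (10.7%) and 21 did not pass, with a median of -0.01. Their mean level was 7.84 to 7.88 on the GPS2KO arrays, against 7.83 to 7.86 on the WT arrays, so the groups overlapped, and 6 of the 28 were dim. Cspg4, a pericyte proteoglycan, averaged 7.75 ± 0.036 in GPS2KO and 8.58 ± 0.14 in WT (SD, n = 3 each) and fell 1.78-fold (adjusted p = 0.000592). The fibroblast cadherin Cdh11 and the smooth muscle genes Cnn1 and Tagln fell by 0.26, 0.22 and 0.19, in that order. The Cdh11 call ended without GPS2KO replicate 2 or WT replicate 1, that of Cnn1 without any 1 array except WT replicate 3, and that of Tagln without any 1 array (adjusted p up to 0.149 for Tagln). Acta2, the smooth muscle actin of activated fibroblasts, was the brightest of the list and differed by -0.05 (adjusted p = 0.494). Pdpn, a glycoprotein of stromal cells also known from activated macrophages, rose 2.5-fold (adjusted p = 2.65e-05). Alpl and Sp7, genes of osteoblasts, rose by 0.57 and 0.41 (adjusted p = 0.000482 and 0.00517), and all 3 of these rises held without any 1 array. Ibsp and the dim Bglap, also genes of osteoblasts, differed by 0.03 and 0.01 and did not pass (adjusted p = 0.944 and 0.957). The part of stromal cells in the falls of the collagen genes was not tested.

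**Figure D5:**
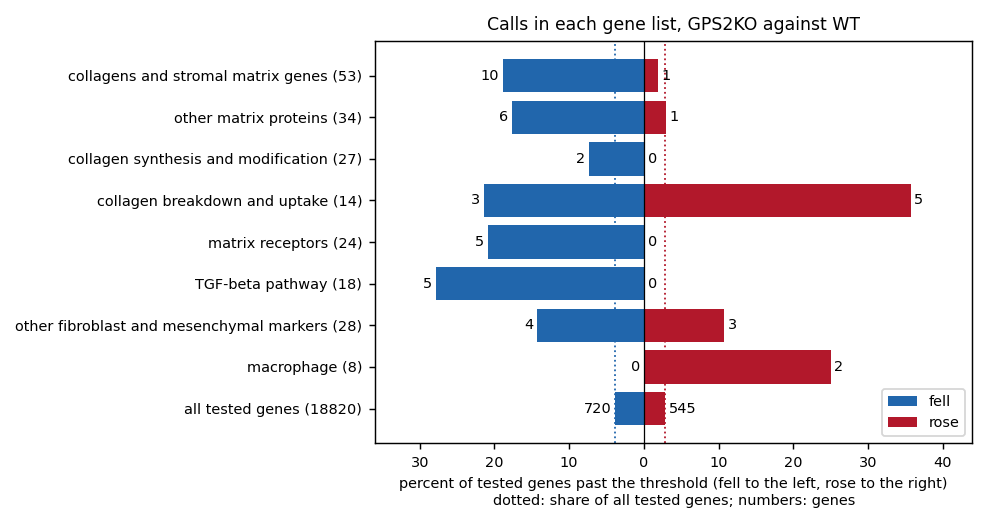
Share of each gene list that fell (left) or rose (right) in GPS2KO against WT, in percent of the tested genes given in brackets. The numbers at the bars count genes, and the dotted lines mark the shares of all tested genes, 3.83% and 2.9%. Most genes of each list lay above the dim limit, where the shares of all tested genes were 6.06% and 4.54%. Falls outnumber rises in the matrix, receptor and TGF-beta lists, and rises outnumber falls in the list of collagen breakdown and uptake.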

How the data were processed

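The authors deposited log2 intensities, 1 per probe set and array, made by RMA in the R package oligo per the submitters' processing notes. RMA corrects background, normalizes by quantiles, which removes any shift common to the bulk of genes, and summarises probes by median polish. Tool versions are not given in the sources used here. In all there were 35556 probe sets, of which 21218 had exactly 1 symbol in GEO's platform annotation. Names were checked through the gene number in RefSeq (GRCm38.p6), which matched 18790 of the 18820 genes.

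All genes were fitted together with limma 3.58.1 in R 4.3.3 (lmFit and eBayes, group as the only term), with 2-sided p-values adjusted by Benjamini-Hochberg over all of them. No gene was filtered out. The precision is limited by the number of arrays, 3 per group. In a simulation over 18820 genes with 50 changed genes per size, 14% were called at a planted log2 change of 0.2 and 40% at 0.3. At 0.5 it was 80% and at 1 it was 100%, beside 2 genes called with no planted change. The simulation held far fewer changed genes than the 1265 that passed here. Adjustment is stricter where fewer genes change, so these shares do not give the sensitivity of the fit to the data.

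The genes and the lists were chosen with earlier results of these data known. Any of the 53 genes could be named. Values per array were given for those past the threshold and for the 6 of highest mean signal. Of each other list, every gene past the threshold was named, with up to 3 of its brightest. Values of Col6a3, Col12a1, Lum, Loxl1, Pdgfra, Ibsp, Bglap and chromosomal neighbours were added after they were seen. Of 188 list symbols, 13 were not analysed here. Alternatives were quantile normalization, median centring, a variance trend in eBayes, dim genes left out, the mean of a gene's probe sets, replicate number as a block, each array left out in turn, and the single-digit reading of the collagen rule.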

Additional observations from a re-analysis of the deposited data

How the results depend on the processing

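After quantile normalization, or with the mean of a gene's probe sets, 10 of the 53 genes fell and 1 rose, as without these steps. Of all tested genes 4.06% and 3.76% fell in these fits, in that order. Median centring gave 14 falls, a variance trend 11 and leaving out dim genes 12 of 40, with 1 rise each, where 5.64%, 6.63% and 10.2% of all tested genes fell. The single-digit reading of the collagen rule gave 8 falls and 1 rise among 34 genes, in the fit where 3.83% of all tested genes fell. Over all tested genes the count past the threshold moved to 2174 with a variance trend and to 1962 of 11292 without dim genes, against 1265. Leaving out 1 array left 749 to 842 genes in all, 5 to 6 falls and 0 to 1 rises among the 53, and 2.23% to 2.67% of all tested genes that fell. Fewer arrays make each such test weaker. The median difference over the 53 ran from -0.11 (without WT replicate 1) to -0.06 (without WT replicate 3) and was -0.13 over the 34, and 0 called genes changed sign under any of these settings. With replicate number as a block, 5 of the 53 fell, 0 rose and 862 genes passed in all, and 2.61% of all tested genes fell. The replicate numbers are not known to pair samples. Same-numbered arrays deviated from their group means with correlations of -0.006 to 0.026. GPS2KO replicate 1 correlated best with WT replicate 3, 2 with 2 and 3 with 1, and the same matches came from the WT side. With 3 arrays per group these correlations cannot tell whether samples were paired. The calls of Col6a1, Col6a2 and Pdgfrb held under each setting here, the block included. Outside the 53 genes, quantile normalization ended the calls of Ogn and Itga1, a variance trend that of Itga1 (adjusted p = 0.0562), and the block ended 16 of 38 calls, Adamts14 among them (0.0522). For a dim gene the size of a difference is limited by signal over background.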

Other observations

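Near Col1a1 on chromosome 11, the predicted gene Gm11545 fell by 1.26 (SE 0.122, limma adjusted p = 0.00123). Its values were 7.34, 6.89 and 6.96 on the GPS2KO arrays, against 8.20, 8.29 and 8.47 on the WT arrays. Gm11545 was chosen after its values were seen. Tmem92, between it and Col1a1 in the order of tested genes, was dim and differed by -0.02, and Sgca, on the other side of Col1a1, by 0.01.

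Of 6 endothelial markers, 2 rose (33.3%), against 2.9% of all tested genes and 4.54% of those above the dim limit. Emcn rose by 0.56 (limma adjusted p = 0.0041) and Cdh5 by 0.35 (adjusted p = 0.0318). The other 4 did not pass: Kdr and Tek differed by 0.14 and 0.03, and Cldn5 and Vwf by -0.16 and -0.13. Tek and Cldn5 were dim. The Cdh5 call ended without any 1 array except GPS2KO replicate 3 or WT replicate 2, at adjusted p up to 0.101. Of the 8 macrophage markers 2 rose (25%), against the same shares of all tested genes. Mertk and Itgam rose by 0.24 and 0.19, and the Itgam call ended without any 1 array (up to 0.1). The other 6 did not pass. Cd14 was lower on all GPS2KO arrays (-0.10) and Lyz2 had a lower mean (-0.04). Fcgr1, Adgre1, Cd68 and Csf1r differed by 0.13, 0.07, 0.04 and 0.03.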
